A study of Mus musculus with 8 samples.

Results

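Arid1a, Arid1b, Arid2, Tet1, Tet2 and Tet3 are 6 mouse genes for subunits of chromatin remodelling complexes and for enzymes that oxidise methylated cytosine in DNA. The peaks described are those that these genes held on their own strand in the 4 deposited lists of N6-methyladenosine (m6A) peaks, 67 of 20732 peaks in all. Of the 6 genes, 5 held a peak, among 4321 genes with a peak in any list. The share of all annotated genes with a peak was not computed, so the 5 of 6 has no background. The lists come from RAW264.7 cells, an established line of mouse macrophages, in which RNA fragments bound by an m6A antibody were sequenced (MeRIP-seq). For 24 h cells received TBP, TCP or TIP, each at 100 µM, and control cells had no treatment; the labels leave the abbreviations unexplained and name no vehicle. Each condition has 1 immunoprecipitated and 1 input library, and the peak lists of the immunoprecipitated ones were analysed. Because no condition has a second library, no difference has a replicate check or a p-value. A gene without a peak in a list is one where none was called; its transcript level and the read depth behind the peaks are not known from the lists.

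m6A is a methyl mark placed on adenosines of messenger RNA by a nuclear methyltransferase complex, and in mammals it is known to be dense around stop codons, in 3′ UTRs and in long exons. ARID1A and ARID1B are alternative subunits of the BAF form of the SWI/SNF complex, which moves nucleosomes using ATP, and ARID2 is a subunit of the PBAF form. The TET enzymes oxidise 5-methylcytosine, the first step of active DNA demethylation, and TET2 is known in myeloid cells as a tumour suppressor and a brake on inflammatory gene expression.

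The 6 genes held 23 peaks in TBP, 23 in TCP, 9 in TIP and 12 in control. Their number per list followed the length of the lists in order, with TIP lowest and TBP and TCP highest. As a share of all peaks they made up 0.366% of the TBP list (exact Clopper-Pearson 95% interval 0.232 to 0.549), 0.329% of TCP (0.209 to 0.494), 0.297% of TIP (0.136 to 0.562) and 0.271% of control (0.140 to 0.472). These intervals overlap. They cover counting error only and treat each peak as independent, although Arid1a alone held 10 of the 23 peaks in TBP and in TCP. They may therefore be too narrow, and their overlap is no test between lists. The ratio to control was 1.92 in TBP for the 6 genes and 1.42 for all peaks, 1.92 and 1.58 in TCP, and 0.750 and 0.685 in TIP. With lists cut to the length of the shortest by score, ties kept, the 6 genes held 14 peaks in TBP, 15 in TCP, 9 in TIP and 8 in control.

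**Figure D1:**
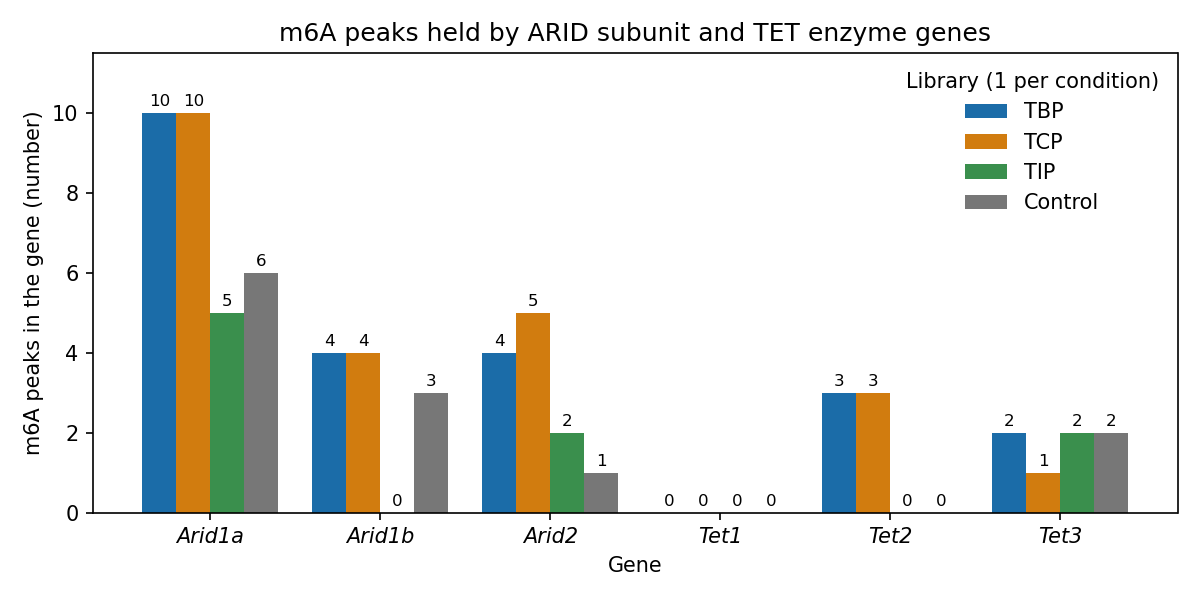
Number of m6A peaks in each gene (bars, labelled with the number) in the TBP, TCP, TIP and control lists, 1 library each, so bars have no error. Arid1a reaches 10 peaks in TBP and TCP, Arid1b and Tet2 have 0 in TIP, and Tet1 has 0 in every list.

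The peaks of these genes lay mostly in last exons. In the lists' own annotation, 44 of the 67 peaks (65.7%) were labelled to the last exon of a transcript outside its UTRs, against 16.7% of all 20732 peaks. Only 6 of the 67 (8.96%) were labelled 3′ UTR, against 49.7% of all peaks, and 4 were labelled 5′ UTR. These counts take a place again for each list. With overlapping same-strand peaks joined to 1 site, 18 of 31 sites (58.1%) had a last-exon peak, against 16.3% of all sites. A 3′ UTR peak was in 5 of the 31 (16.1%), against 48.9%. Arid1a contributes 31 of the 67 peaks; without it 18 of 36 (50%) were in a last exon. Each of the 5 genes with a peak had one labelled to the last exon outside a UTR, as did 23.8% of all 4321 genes. A 3′ UTR peak was held by 3 of the 5 (60.0%), Arid1a, Arid1b and Arid2, against 69.1% of all genes, so the low 3′ UTR share of peaks was not matched by a low share of genes. Peaks of 1 gene are not independent, and genes with more peaks have more chances of such a label, so these shares are set side by side without a test.

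**Figure D2:**
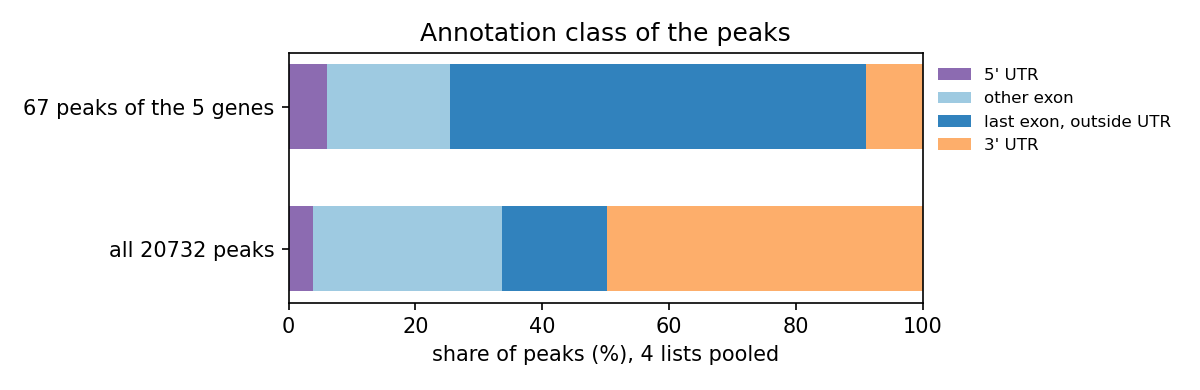
Share of peaks (%) by annotation class, 4 lists pooled, for the 67 peaks of the 5 genes (above) and all 20732 peaks (below). The last-exon class takes 65.7% of the upper bar and 16.7% of the lower, and the 3′ UTR class 8.96% and 49.7%.

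Arid1a lies on the minus strand of chromosome 4 (133679008 to 133756769, RefSeq span on GRCm38.p6) and was the most heavily marked of the 6, with 10 peaks in TBP, 10 in TCP, 5 in TIP and 6 in control. Of its 31 peaks, 26 fell in exon 20 of 20, within 1675 bp (133680333 to 133682007). Same-strand peaks sharing at least 1 bp were joined to a site, and 2 of its sites had a peak in every list. The first, at 133680758 to 133680882, ranked 543 of 6285 by score in TBP, 1774 of 6981 in TCP, 578 of 3034 in TIP and 1562 of 4432 in control. Ranks hold within a list only, because the authors' score has no stated scale across lists. The second, at 133681958 to 133682007, ranked lower, at 2099 in TBP, 2827 in TCP, 1687 in TIP and 3772 in control, the last being the lowest score of the control list.

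The strongest Arid1a peak of TIP and of control lay in one and the same site, at 133681033 to 133681157, where no TBP peak was called. It ranked 590 in TCP, 399 in TIP and 669 in control. Further 3′ in the exon, a site at 133680333 to 133680557 had peaks with all 3 compounds and none in control, and it held the strongest Arid1a peak of TCP. Its best ranks were 1002 in TBP (133680333 to 133680432), 554 in TCP (133680408 to 133680557) and 1805 in TIP (133680483 to 133680532). That TBP peak overlapped the TCP peak only in part and this TIP peak not at all. The other TBP peak of the site, at 133680533 to 133680557 within the TCP peak, ranked 5377, the lowest score. When an overlap of at least 50% of the shorter peak was required, Arid1a had 14 sites in place of 13. Outside the last exon, Arid1a had a peak in exon 18 (133685270 to 133685394, the same bounds in both lists, rank 1247 in TBP and 1446 in TCP) and one in exon 1 (133753280 to 133753354, rank 3788 in TBP and 4184 in TCP). Neither was called in TIP or control. A single peak labelled 3′ UTR, in TBP, was at the lowest score of that list. With lists cut to the length of the shortest, Arid1a held 5 peaks in TBP, 6 in TCP, 5 in TIP and 3 in control, so the distance between TIP and the other compounds was not seen there.

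Arid1b lies on the plus strand of chromosome 17 (4994297 to 5347656) and held 4 peaks in TBP, 4 in TCP, 0 in TIP and 3 in control. All 11 lay in exon 19 of 19 or in the 3′ UTR next to it, within 875 bp (5342282 to 5343156) of a gene spanning 353360 bp. They formed 4 sites, and 3 of these had peaks in TBP, TCP and control. The first, at 5342282 to 5342431, ranked 1002 in TBP, 1020 in TCP and 1328 in control. The next, at 5342557 to 5342756, held the strongest TBP peak (rank 555) and ranked 1642 in TCP and 3772, the lowest score, in control. The site at 5342957 to 5343106 ranked 3788 in TBP, 881 in TCP and 823 in control. In this site a TBP peak ending at 5343031 was labelled exon, and longer TCP and control peaks ending at 5343106 were labelled 3′ UTR. If any peak touching a UTR carries that label, the 3′ UTR begins within the 75 bp from 5343032 to 5343106, so the third site spans the end of the coding sequence. The fourth site, a TBP peak at 5343107 to 5343156, began at the next base after the third.

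Arid1b was the only member with a control peak and no TIP peak, 1 of 4, where 41.1% of all 2481 control genes had no TIP peak. None of the 4 was without a peak in TBP or in TCP, where the shares over all control genes were 17.3% and 16.1%. Of 286 genes with at least 3 peaks in each of TBP, TCP and control, 13 (4.55%) had 0 in TIP; the minimum of 3 was chosen after the Arid1b counts were seen. Arid1a was the other member among the 286 and held 5 TIP peaks. The lowest score was 10.7 in the TIP list, against 8.56 in TBP, 8.73 in TCP and 8.59 in control. The best Arid1b score was 10.37, in TBP, below the lowest TIP score. The Arid2 and Tet3 peaks of the other lists also scored below it (10.10 and 10.61 at best, both in TCP), and both genes held TIP peaks. The best Arid1a score outside TIP was 10.70, in TCP, and Arid1a held TIP peaks too. Whether scores compare across lists is not stated, so a role of the lowest score in the uncalled TIP peaks was not tested.

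**Figure D3:**
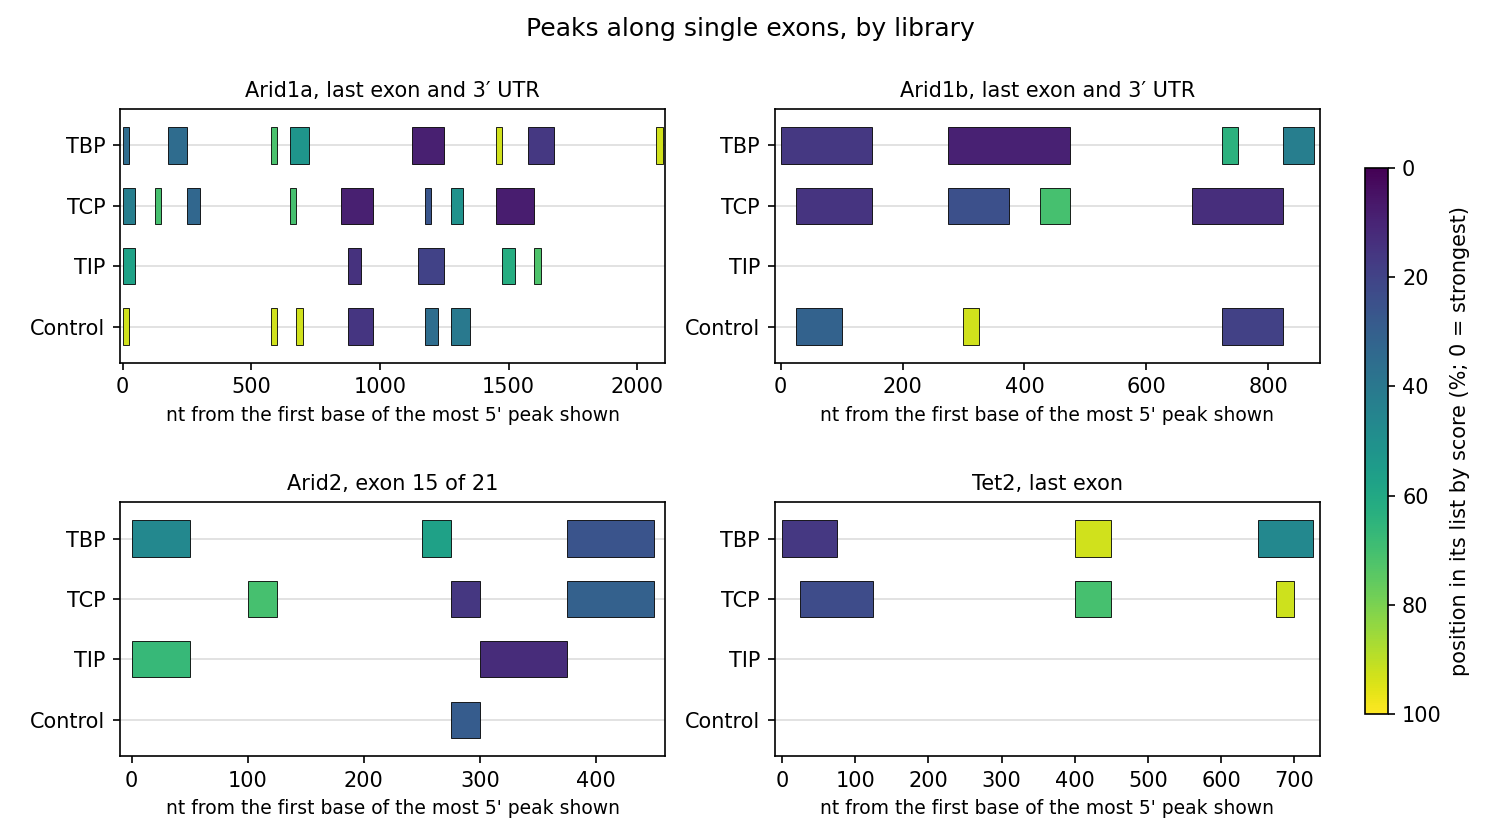
Peaks of the TBP, TCP, TIP and control lists along parts of Arid1a, Arid1b, Arid2 and Tet2; the horizontal axis is the distance in nt from the most 5′ peak shown, in transcript direction, and colour gives the position of a peak in its list by score (0% is strongest). Arid1a peaks of the last exon extend over 1675 bp in TBP, 1600 bp in TCP, 1625 bp in TIP and 1350 bp in control. Arid1b and Tet2 rows are empty for TIP. The Arid2 peaks from 250 to 450 nt lie end to end or share their bounds between lists, and those before 250 nt are set apart by gaps.

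Arid2 lies on the plus strand of chromosome 15 (96287522 to 96405463) and held 4 peaks in TBP, 5 in TCP, 2 in TIP and 1 in control. Unlike those of the other members, most of its peaks, 9 of 12, were in an internal exon, exon 15 of 21, within 450 bp (96371821 to 96372270). The control peak there was 25 bp long (96372096 to 96372120, rank 1233), and a TCP peak had the same bounds (rank 1083). The TIP peak at 96372121 to 96372195 ranked 356 of 3034, the best rank of any TIP peak in these genes, and began at the base after the control peak ended. A TBP peak ended at the base before the control peak began, and TBP and TCP peaks at 96372196 to 96372270 (ranks 1571 and 2043) began at the base after the TIP peak ended. By overlap no Arid2 site had a peak in all 4 lists. When abutting peaks were joined too, a setting chosen after seeing the data, 1 Arid2 site had peaks in all 4 and the number of Arid2 sites was 5 in place of 9.

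At the other end of Arid2, 1 TBP peak and 2 TCP peaks lay between 96402031 and 96402355, and none in TIP or control. The TCP peak at 96402031 to 96402055 was labelled exon 21 of 21 and the TBP peak at 96402056 to 96402105 was labelled 3′ UTR. By the same reading of the labels as for Arid1b, the 3′ UTR begins within the 50 bp of that TBP peak. The further TCP peak, at 96402281 to 96402355, ranked 1642.

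Tet2 lies on the minus strand of chromosome 3 (133463677 to 133545136) and held 3 peaks in TBP, 3 in TCP, 0 in TIP and 0 in control. All 6 peaks were in exon 11 of 11, within 725 bp (133467004 to 133467728), and each of the 3 TBP peaks overlapped a TCP peak. The most 5′ site (133467604 to 133467728) was the strongest in both lists, with rank 1002 in TBP and 1541 in TCP. The middle site had the same bounds in both lists (133467279 to 133467328) and ranked 5377, the lowest score, in TBP and 4645 in TCP. The most 3′ site (133467004 to 133467078) ranked 2789 in TBP and 5932, the lowest score, in TCP. At the length of the shortest list 2 of the TBP peaks and 1 of the TCP peaks were kept.

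Tet2 was thus the only member gained, that is, with a peak after a compound and none in control. Over the 1840 genes that had no control peak but at least 1 in a compound list, 58.8% were gained in TBP, 71.9% in TCP and 17.9% in TIP. Peaks in TBP and TCP and in neither TIP nor control were found for 471 of the 1840 genes (25.6%). Of these 471, 6 genes (1.27%), Tet2 among them, had at least 3 peaks in both TBP and TCP, a minimum taken from the Tet2 counts after they were seen. The best Tet2 score, 9.91 in TBP, was below the lowest TIP score of 10.7, with the same limit as for Arid1b. The scores of Arid2 and Tet3 outside TIP were below it too, and these genes held TIP peaks.

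Tet3 lies on the minus strand of chromosome 6 (83362373 to 83457208) and held 2 peaks in TBP, 1 in TCP, 2 in TIP and 2 in control. Its leading peak was in the 5′ UTR in every list. This site, at 83455068 to 83455192, ranked 717 in TBP, 618 in TCP, 834 in TIP and 823 in control. The TBP and TCP peaks there were 125 bp long, the TIP peak 75 bp and the control peak 100 bp. Of 1284 genes with a peak in all 4 lists, 39 (3.04%) had a 5′ UTR peak in each list. That category follows the Tet3 pattern and was not planned, so the share is no test of Tet3. The second Tet3 site lay at the other end of the gene, in exon 11 of 11 (83368523 to 83368597), with rank 1797 in TBP, 946 in TIP and 2107 in control. No TCP peak was called in it.

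Tet1, on chromosome 10 (62804570 to 62887469), had no peak in any of the 4 lists, on either of the gene assignments tried.

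In all, the 5 genes held 31 sites, of which 22 had a TBP peak, 22 a TCP peak, 8 a TIP peak and 12 a control peak. A peak in all 4 lists was found at 3 of the 31 sites, 2 in Arid1a and 1 in Tet3; over all 11753 sites the share was 10.6%. A peak in a single list was found at 11 of the 31, where the share over all sites was 60.6%. Of the 31 sites, 5 were in TBP alone, 5 in TCP alone, 1 in TIP alone and 0 in control alone, where the shares over all sites were 19.9%, 25.1%, 6.46% and 9.11%. Of 4299 sites with a control peak in all genes, 24.9% had no compound peak, against 0 of 12 here. A further 6 sites were shared by TBP and TCP alone, 3 of them in Tet2, 2 in Arid1a and 1 in Arid2, where the share over all sites was 7.81%. Of the 4 members with a control peak, Arid1a, Arid2 and Tet3 had peaks in all 4 lists, as did 51.8% of all control genes. The single-list count depends on the rule for joining. It was 2, of 19 sites, when peaks at most 100 bp apart were joined, and 4, of 25 sites, when abutting peaks were. The share over all sites was not computed under these rules, so the 60.6% is not a background for them.

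Read peak by peak, 9 of the 23 TBP peaks of these genes overlapped a control peak, against 40.0% of all TBP peaks, and 9 of 23 TCP peaks did so, against 35.4%. For TIP it was 5 of 9, against 51.8%. In the other direction, 9 of the 12 control peaks overlapped a TBP peak (57.3% of all control peaks did), 9 a TCP peak (55.7%) and 5 a TIP peak (35.3%). Between compounds, 15 of 23 TBP peaks (65.2%) overlapped a TCP peak, against 50.2% of all TBP peaks, and 15 of 23 TCP peaks (65.2%) overlapped a TBP peak, against 45.5%. With TIP the shares were nearer those of all peaks, except the share of TIP peaks that overlapped a TBP peak. A TIP peak was overlapped by 26.1% of the TBP peaks of these genes, against 25.4% of all, and by 21.7% of the TCP peaks, against 24.3%. Of the 9 TIP peaks, 66.7% overlapped a TBP peak, against 53.6% of all, and 55.6% a TCP peak, against 56.2%.

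Among the 4 members with peaks in both TBP and control, Arid1a, Arid1b and Arid2 had more in TBP and Tet3 had as many; over the 2051 such genes 36.0% had more and 14.9% fewer. In TCP the same 3 genes had more peaks than in control and Tet3 had fewer, where 41.9% of 2081 genes had more and 13.3% fewer. In TIP, Arid2 had more, Arid1a fewer and Tet3 as many, where 14.4% of 1462 genes had more and 34.1% fewer. The 3 comparisons use the same control library.

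**Figure D4:**
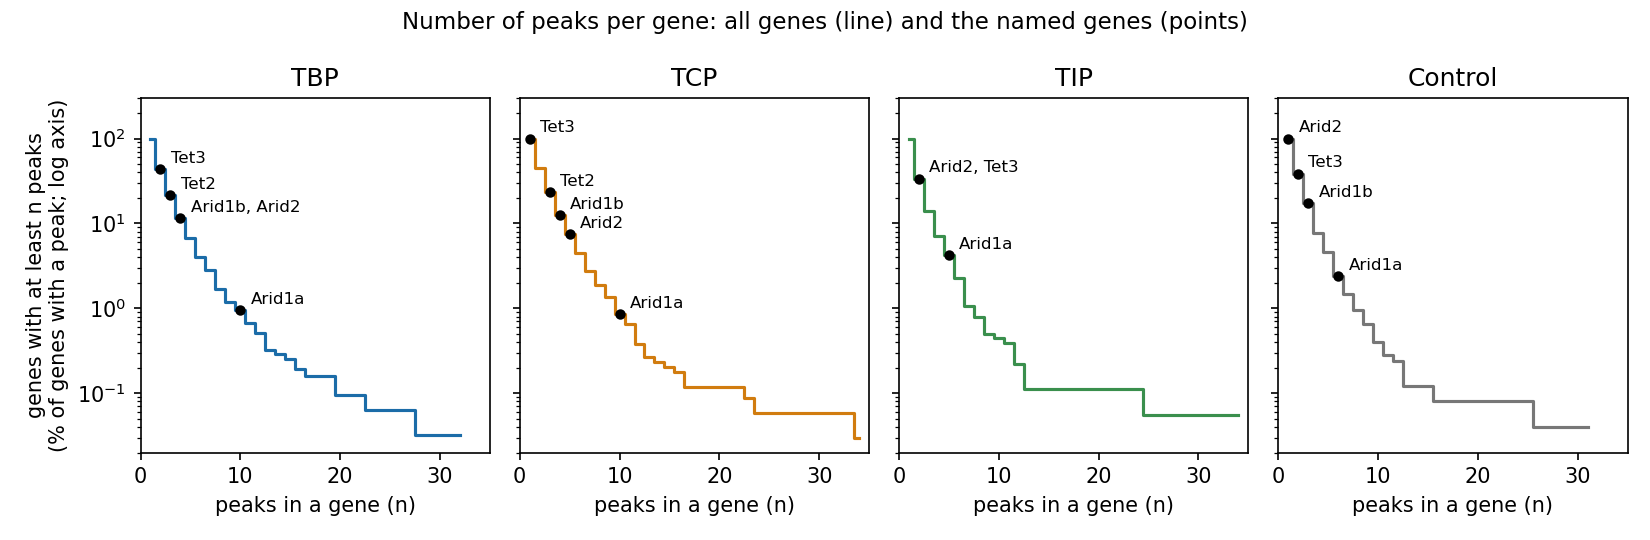
Share of genes with at least n peaks (log axis, % of genes with a peak in that list) against n, for TBP, TCP, TIP and control; points mark the named genes. Arid1a sits at 0.958% in TBP, 0.852% in TCP, 4.19% in TIP and 2.38% in control, and the other genes lie higher on the curves.

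Few genes carried as many peaks as Arid1a. At least 10 peaks were held by 30 of 3133 genes in TBP (0.958%) and 29 of 3404 in TCP (0.852%), at least 5 by 75 of 1792 in TIP (4.19%) and at least 6 by 59 of 2481 in control (2.38%). The 4 peaks of Arid1b and of Arid2 in TBP were reached by 11.6% of genes, and the 3 of Tet2 by 21.5%. No other gene had the counts of Arid1a; by the summed difference in peak number over the 4 lists the closest were Dmxl1 (8, 10, 6 and 6 in TBP, TCP, TIP and control) and Notch2 (10, 8, 5 and 7), each at a distance of 3. Dyrk3 was the only gene with the counts of Arid1b. For Arid2 the closest were Hspa4 (4, 4, 2 and 1) and Kansl1 (4, 5, 2 and 2), each at a distance of 1. Arid3a and Eif2ak3 were 2 of the 3 genes with the counts of Tet2.

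By score the peaks of these genes spread over each list and were not among its top peaks. The best was at 8.73% of the TBP list, 8.04% of TCP, 12.4% of TIP and 15.5% of control, counted from the strongest with ties at their middle. The median was 42.3% in TBP, 30.5% in TCP, 32.3% in TIP and 37.9% in control, where 50% is the middle of a list. At the lowest score of their list were 3 of the 23 TBP peaks, 1 of the 23 TCP peaks, 0 of the 9 TIP peaks and 4 of the 12 control peaks, against 14.5%, 15.0%, 10.9% and 14.9% of all peaks in the same order. The control peaks at that score were 3 of the 6 in Arid1a and 1 of the 3 in Arid1b. All 67 peaks were 25 to 200 bp long.

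**Figure D5:**
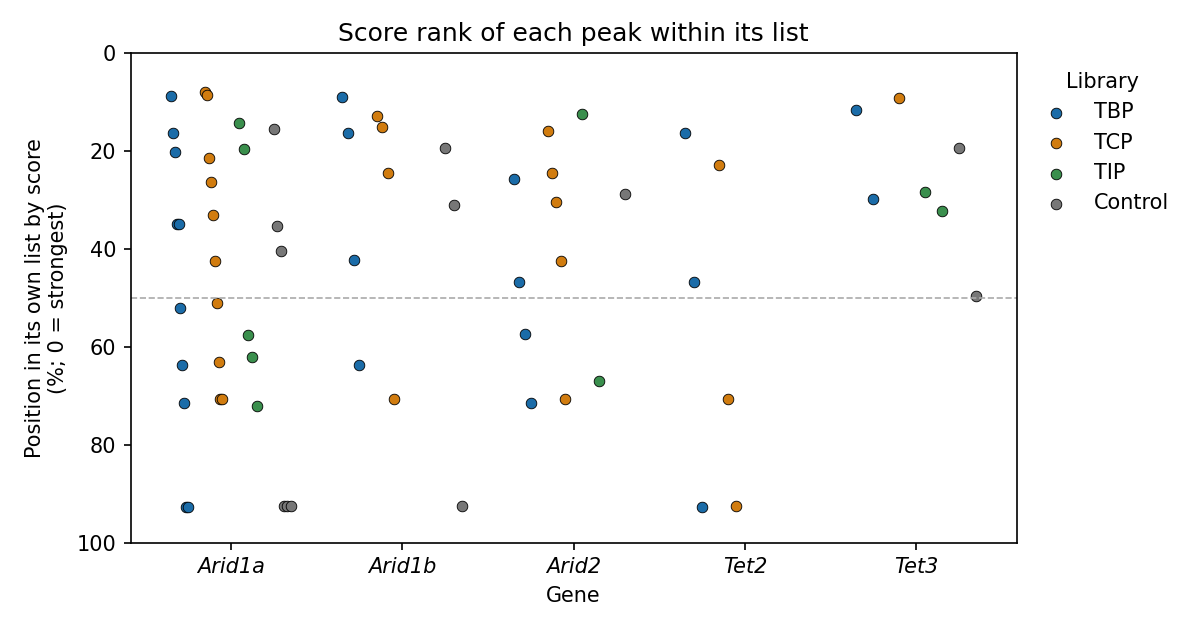
Position of each peak in its own list by score (%, 0 is strongest, axis inverted), by gene and library; Tet1 has no peak and the dashed line marks 50%. The leading peaks lie between 8.04% and 28.7% for every gene and list, and the group near 93% in Arid1a, Arid1b and Tet2 holds peaks at the lowest score of their list.

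Other genes of the same complexes and of DNA methylation carried at most 4 peaks in a list. Of 25 further SWI/SNF subunits, 6 had a peak in TBP, 6 in TCP, 3 in TIP and 3 in control, and 8 in any list. Because the share of all annotated genes with a peak was not computed, such counts have no background. This holds here and for the gene sets and markers that follow. Ss18, a BAF subunit, was the only one in all 4 lists, with 1 peak in each. Pbrm1, the bromodomain subunit of the PBAF form that ARID2 belongs to, had 3 in TBP, 2 in TCP, 0 in TIP and 4 in control. The ATPase subunits Smarca4 and Smarca2 had none. Of the 5 without a control peak and with a compound peak, 3 were gained in TBP, 3 in TCP and 2 in TIP, where the shares over all genes were 58.8%, 71.9% and 17.9%. Of the 3 with a control peak, 0 were lost in TBP and in TCP and 2, Pbrm1 and Bicral, in TIP, where the shares were 17.3%, 16.1% and 41.1%.

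Of 11 other genes with an ARID domain, 5 had a peak in TBP, 6 in TCP, 1 in TIP and 3 in control, and none in all 4. Arid3a had 3, 3, 0 and 0 peaks in TBP, TCP, TIP and control, the same counts as Tet2. Arid4a had 2 in each compound list and 0 in control. All 3 with a control peak (Arid4b, Jarid2 and the H3K4 demethylase gene Kdm5a) were without one in TIP. Jarid2 had none in TBP either, and 0 of the 3 were lost in TCP. Among all control genes, 41.1% lacked a TIP peak, 17.3% a TBP peak and 16.1% a TCP peak. A compound peak without a control peak was held by 4 further genes of this set. TBP gained 3 of these, TCP 3 and TIP 1. The matching shares of all such genes were 58.8% for TBP, 71.9% for TCP and 17.9% for TIP. Of 18 genes that write, read or help remove DNA methylation, 6 had a peak in TBP, 4 in TCP, 1 in TIP and 6 in control. Dnmt3a, a de novo DNA methyltransferase, was the only one in all 4, with 3, 1, 1 and 1 peaks in TBP, TCP, TIP and control. Dnmt1, the maintenance methyltransferase, had 3, 3, 0 and 1, and Ogt, the O-GlcNAc transferase that binds TET proteins, had 4, 4, 0 and 1. Of the 6 with a control peak, 2 were lost in TBP (Uhrf2 and Mbd1), 2 in TCP (Uhrf2 and Mbd3) and 5 in TIP, Dnmt1, Ogt and Uhrf2 among them, where the shares over all control genes were 17.3%, 16.1% and 41.1%. Of the 2 with a compound peak and no control peak, 2 were gained in TBP (Mbd4 and Idh2), 0 in TCP and 0 in TIP. The shares over all such genes were 58.8%, 71.9% and 17.9%.

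As a check of the cell type, 8 of 10 macrophage markers had a peak in some list, and Adgre1 and Itgam had none. Of the 7 with a control peak, 4 (Csf1r, Mpeg1, Cd14 and Fcgr1) had peaks in every list, as did 51.8% of all control genes. A peak is a called mark and does not measure expression, so this check is a weak one. Cd68 and Lyz2 had none in TCP and TIP, Spi1 none in TIP, and Ptprc none in TIP and control. Of 16 markers of T cells, B cells, fibroblasts, epithelium and neurons, 0 had a peak.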

How the data were processed

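RNA of RAW264.7 cells was immunoprecipitated with an m6A antibody, and fragments of 40 to 60 nt were sequenced, per the labels' protocols. The submitters' processing notes name HISAT2 2.1.0, HOMER 4.11 and ChIPseeker 1.26 among their tools, with no role, and mm10 (GRCm38) as build. Which program called the peaks, at what threshold and against which input is not given in the sources used here. The authors deposited 1 peak list per immunoprecipitated library, with a score of unstated scale that was used to rank peaks within a list.

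A peak was given to the gene named in its exon annotation, else to the gene in the nearest-gene column if it contained the peak, else to a single RefSeq gene span (GRCm38.p6), always on the same strand; strand came from the RefSeq promoter table and from the lists, and a gene of unknown strand was accepted where it alone spanned the peak. This placed 98.5% of peaks. Of the 67 member peaks, 57 came from the exon annotation, 4 from the nearest gene and 6 from spans. For 46 of them (68.7%; 23.3% of all placed peaks) the nearest-gene column names another gene, such as Pigv for Arid1a. Peaks were joined to sites by single linkage, for same-strand peaks sharing at least 1 bp, and this step was tested on simulated data. Python 3.11.15, pandas 2.3.3 and SciPy 1.17.1 were used. The members and gene lists were chosen with earlier results of these data known. Genes outside the 6 were named by a written rule: those with peaks in all lists, then the most peaks, and those closest in peak counts (not reported here for Tet3); the others named were picked after their values were seen. Peak sequences were not used here.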

Additional observations from a re-analysis of the deposited data

How the results depend on the processing

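Of 87 recomputed counts that answer a comparison, 70 stayed within 1.5 times, with a 0 that stayed 0 counted among them, and 40 were equal. Of the 70, 21 came from leaving out peaks over 500 bp, where no member peak could drop out. Tet2 gained in TBP and TCP and Arid1b lost in TIP held when each list was limited to scores from its median up. Both also held at the length of the shortest list and without peaks over 500 bp. These settings only remove peaks, so the absence of Tet2 from control and of Arid1b from TIP could not change. What could change was whether Tet2 kept a peak in TBP and TCP, and Arid1b in control. Member peaks were at most 200 bp long, so leaving out peaks over 500 bp could alter neither. At or above the median, the 6 genes held 15 peaks in TBP (23 as deposited) and 5 in TIP (9), and 245 of all genes were lost in TBP (430). At the length of the shortest list, ties kept, they held 14 in TBP and 15 in TCP (23 each), and over all genes 467 were gained in TBP (1082), 490 in TCP (1323) and 647 lost in TIP (1019). Losses then outnumbered gains with TBP (570 lost, 430 as deposited) and TCP (588, 400), the reverse of the deposited lists. With genes as named in the nearest-gene column, the 6 genes held 8 peaks in TBP, 8 in TCP, 3 in TIP and 2 in control, 2 of the 6 had a control peak (4), 2 were gained in TBP and 2 in TCP (1 each), 0 were lost in TIP (1) and 1 site recurred in all 4 lists (3). That column gives Arid1a 1 peak in TBP, 1 in TCP and 0 in TIP and control, and Arid1b 0 in every list, and leaves none of the 2 Arid1a sites that recurred in all lists. No paired analysis was possible because each condition has 1 library, and leaving out a replicate was not possible for the same reason. Read depth is not recorded in the lists, which limits how firmly an uncalled peak can be read.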
